A study of Arabidopsis thaliana with 11 samples.

Results

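The 3 genes described here belong to the plant circadian clock or to a factor family under its control. They are PRR7 (AT5G02810), GI (AT1G22770) and AT1G69570, which encodes a Dof-type zinc finger transcription factor (TF). They were picked out by gene code, with earlier results of these data known. The probe sets of GI and AT1G69570 were found through the array platform's table of genes. The probe set of PRR7 is not listed there and was named from the probe and gene columns of the study's own gene list. All 3 had a probe set, out of 19526 features tested and 11886 named genes in the series.

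Labeled RNA was measured in Arabidopsis thaliana Col-0 root protoplasts, cells whose walls have been digested away, on 11 ATH1 microarrays. The 6 arrays of 4tU-bZIP1 held cells transfected with 35S::GR::bZIP1, a fusion of the TF bZIP1 to a glucocorticoid receptor domain that holds it in the cytoplasm until dexamethasone is given. The 5 arrays of 4tU-EV held cells transfected with the empty vector pJD385_35S::GR, which has the receptor domain and no TF. The labels name the arrays of both groups as biological replicates. Both groups received the same treatments. These were 20 mM KNO3 with 20 mM NH4NO3 for 1 h 40 min by the labels, 35 µM cycloheximide for 20 min, which blocks translation, and 10 µM dexamethasone for 5 h. For the last step, 1.5 mM 4-thiouracil (4tU) with 0.2 mM uracil was given for 20 min, so that RNA made in that window carried a tag and could be pulled down. The seedlings had grown at 22 °C with 16 h of light and 8 h of dark, on 1 mM KNO3 and 1% sucrose. The clock time at which the cells were collected is not given in the sources used here. The model has its limits, since expression was transient and driven by the constitutive 35S promoter, sorted cells of the whole root were mixed, and these wild-type cells keep their own bZIP1.

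The clock of plants is a loop of repressors and activators whose transcripts peak at different times of day. PRR7 is a pseudo-response regulator that represses the morning genes CCA1 and LHY, and its own transcription is known to be lowered by sugars and raised by low energy through bZIP63, a group C partner of the S1 group to which bZIP1 belongs. GI is a large plant-specific protein of the afternoon and evening that stabilizes the F-box protein ZTL and, with FKF1, leads to the destruction of cycling Dof factors. Those factors repress CO and FT and so delay flowering. AT1G69570 is carried in the list of cycling Dof factors used here as CDF5.

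Labeled PRR7 and AT1G69570 transcripts were about 3-fold higher in bZIP1-expressing cells than in the empty vector cells, but neither passed the test across all features. The difference in GI was within the spread between arrays. The values are GCRMA intensities, a robust average of the signals of a gene's probes after background correction and normalization. They were set against each other only within a gene. The threshold was a Benjamini-Hochberg adjusted p under 0.1 from limma, a linear model that borrows the spread from all features. Of all features, 32 (0.164%) were called higher and 4 (0.0205%) lower, and none of the 3 genes was among them. At an unadjusted p under 0.05 from limma, 295 features (1.51%) were higher and 632 (3.24%) lower, and PRR7 and AT1G69570 were among the higher ones.

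PRR7 had intensities of 63.7, 44.6, 69.2, 52.0, 106 and 179 on the arrays of 4tU-bZIP1, replicates 1 to 6, against 22.5, 24.0, 21.4, 18.5 and 43.3 on those of 4tU-EV, replicates 1 to 5. Every bZIP1 array lay above every control array, the lowest of them (replicate 2) just above the highest control (replicate 5), an order shared by 79 of all features (0.405%), while 88 (0.451%) had the opposite one. The mean was 85.8 ± 50.5 (SD) over the 6 arrays of 4tU-bZIP1 and 25.96 ± 9.91 (SD) over the 5 of 4tU-EV. On the log2 scale the difference was 1.62 (standard error 0.37, 95% interval 0.79 to 2.45), a 3.07-fold difference, with an adjusted p of 0.388 from limma. An exact two-sided permutation test over the arrays gave p = 0.00433, the smallest it can give here. PRR7 ranked at position 74 of 19526 features by limma's p. The study had placed PRR7 on its list of induced genes from these same arrays. Neither the direction nor the p-values are therefore independent evidence, and the probe set of PRR7 has a name here only because of that list.

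AT1G69570 had 24.9, 79.4, 58.1, 38.0, 86.1 and 80.0 in 4tU-bZIP1, against 36.4, 13.4, 13.1, 20.9 and 10.99 in 4tU-EV. The groups overlapped through bZIP1 replicate 1, which lay below the control's highest array (replicate 1), and the other 5 bZIP1 arrays were above all controls. The mean was 61.1 ± 25.2 (SD) over the 6 arrays of 4tU-bZIP1 and 19.0 ± 10.4 (SD) over the 5 of 4tU-EV. The log2 difference was 1.70 (standard error 0.41, 95% interval 0.78 to 2.63), a 3.25-fold difference, with an adjusted p of 0.458 from limma and an exact two-sided permutation p of 0.00866. This gene is on the study's list of induced genes as well, so here too the direction and the p-values are not independent evidence. The paper also shows AT1G69570 as a transient target. That class comes from an earlier experiment on total RNA, and its genes were regulated without detected bZIP1 binding. The paper adds a second replication of the bZIP1 binding assay after 5 h of dexamethasone. It reports AT1G69570 as no longer bound in either replication and as upregulated in labeled RNA. The total RNA and binding data were not used here. The RefSeq annotation places 1 long non-coding RNA, AT1G69572, wholly inside AT1G69570, and the strand that the array labeling read is not given in the sources used here, so signal of either could not be told apart.

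GI had 133, 71.8, 49.2, 96.7, 179 and 162 in 4tU-bZIP1, against 73.3, 108, 68.5, 51.5 and 81.1 in 4tU-EV. The groups overlapped widely. Replicates 1, 5 and 6 of 4tU-bZIP1 were above all controls, while replicate 3 was below all of them. The mean was 115 ± 51.2 (SD) over the 6 arrays of 4tU-bZIP1 and 76.6 ± 20.8 (SD) over the 5 of 4tU-EV. The log2 difference was 0.49 (standard error 0.35, 95% interval -0.29 to 1.27), with an adjusted p of 0.847 from limma and an exact two-sided permutation p of 0.208. The interval runs from 0.82-fold to 2.41-fold, so an increase of the size seen for the other genes was outside it. An increase of up to 2.41-fold or a slight decrease, down to 0.82-fold, was not. Whether GI responded differently from PRR7 was not tested.

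**Figure D1:**
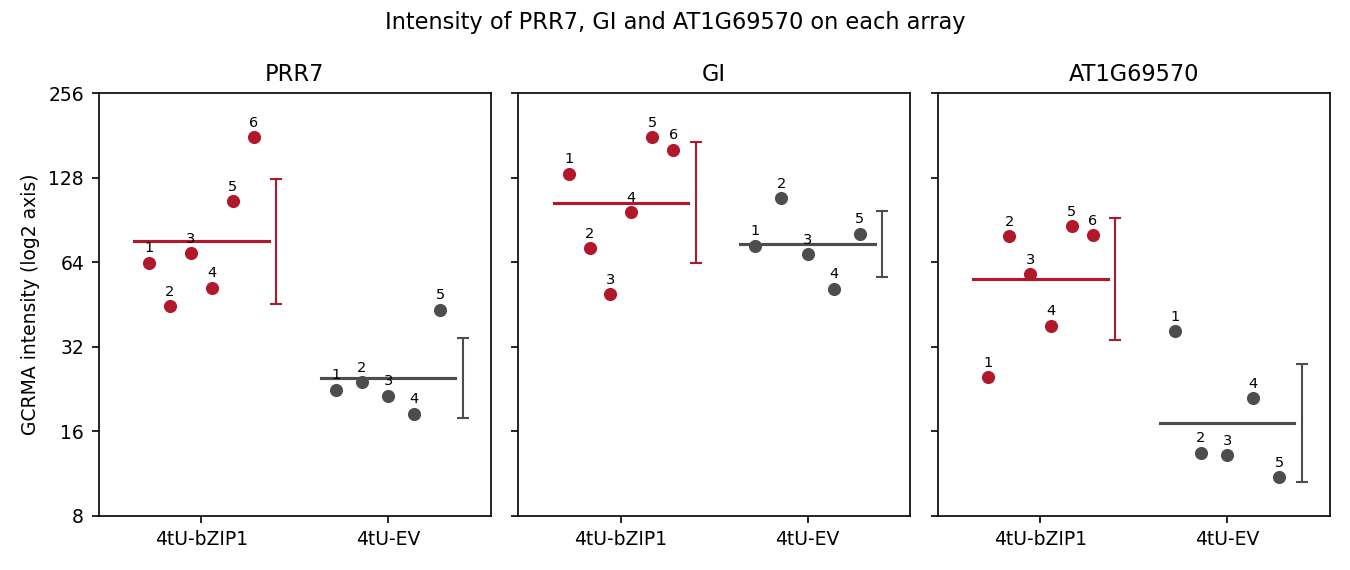
GCRMA intensity (log2 axis) of PRR7, GI and AT1G69570 on each array, with 4tU-bZIP1 (red, n = 6) left of 4tU-EV (grey, n = 5). Points are arrays with their replicate number, horizontal lines the means of the log2 values and bars their SD; the lowest PRR7 point of 4tU-bZIP1, 44.6, lies just above the highest of 4tU-EV, 43.3.

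The arrays of 4tU-bZIP1 replicates 5 and 6 and 4tU-EV replicate 5 stood apart from the rest together. Principal components were taken of the deviations from the group means, over features outside the gene lists. On the second, which holds 15.5% of that variance within groups, these arrays scored 0.315, 0.405 and 0.641. Every other array scored 0.0197 or less there, down to -0.359 for 4tU-bZIP1 replicate 4. The first component, with 33.9%, was carried by 4tU-bZIP1 replicate 1, which scored 0.911. The labels name no batch that joins replicates 5 and 6 of 4tU-bZIP1 and replicate 5 of 4tU-EV. PRR7 was at its highest on these arrays in both groups, with 106 and 179 in 4tU-bZIP1 replicates 5 and 6 and 43.3 in 4tU-EV replicate 5. WER (AT5G14750), which encodes a MYB factor of the root epidermis and is also on the study's list of induced genes, moved in the same way: it had 88.8 and 146 on those bZIP1 arrays and 6.98 to 23.1 on the other 4, against 66.0 on that control array and 6.08 to 7.40 on the other 4. In such mixed cells, more cells of a type and more RNA per cell cannot be told apart.

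The difference in PRR7 did not rest on these arrays alone. Without them PRR7 had a mean of 57.4 ± 11.1 (SD) over 4 arrays of 4tU-bZIP1 and 21.6 ± 2.33 (SD) over 4 of 4tU-EV. The log2 difference was 1.39 (standard error 0.16), which passed the threshold at an adjusted p of 0.0955 from limma, in a fit where 13 features (0.0666%) were called higher and 1 (0.00512%) lower. The exact permutation p was 0.0286, the smallest that 4 against 4 arrays can give. Within the 3 arrays that stood apart, the mean of the bZIP1 arrays exceeded the control by 1.67 on the log2 scale. Leaving these arrays out was decided after the data were seen. The study listed PRR7 as induced from arrays that include those kept here, so these p-values are not independent evidence.

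AT1G69570 and GI depended more on the same arrays. Without them AT1G69570 had 50.1 ± 23.8 (SD) over 4 arrays of 4tU-bZIP1 and 20.98 ± 10.9 (SD) over 4 of 4tU-EV, a log2 difference of 1.26 with an adjusted p of 0.753 from limma and an exact permutation p of 0.0571. Within the 3 arrays its difference was 2.92, since both bZIP1 arrays were high and the control array held the lowest value of all, 10.99. The log2 difference of GI was 0.17 without these arrays and 1.07 within them. How these arrays came to stand apart, and whether they held other proportions of root cell types, was not tested.

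**Figure D2:**
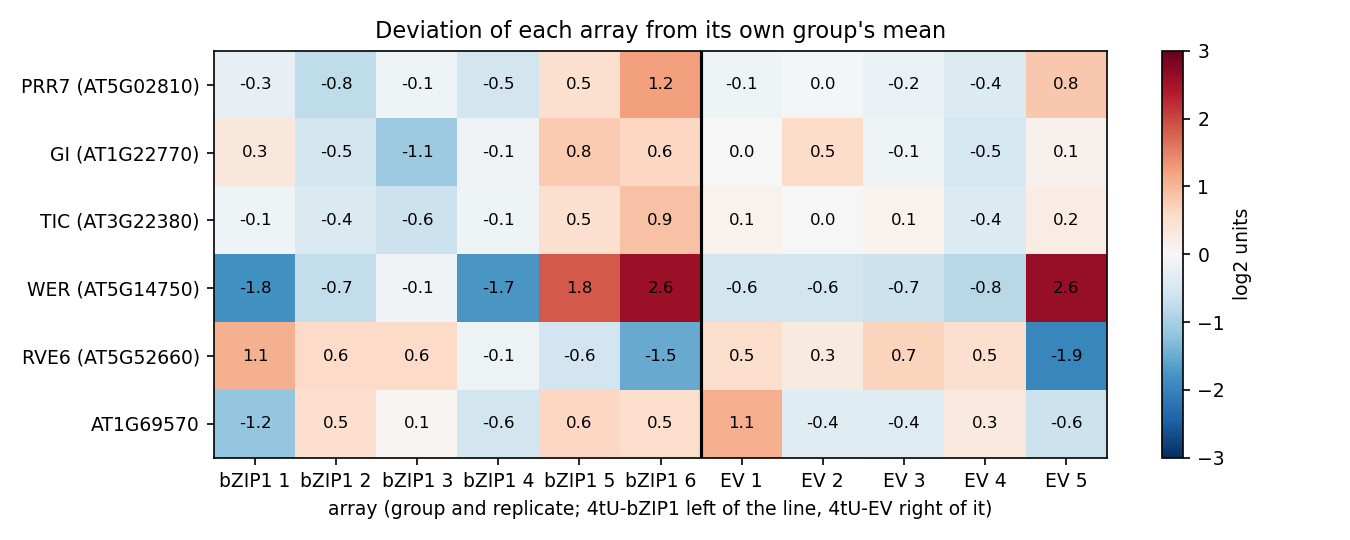
Deviation of each array's log2 intensity from the mean of its own group (colour and number, log2 units), for 4tU-bZIP1 arrays left of the line and 4tU-EV arrays right of it. PRR7 and WER are above their group mean on bZIP1 replicates 5 and 6 and EV replicate 5, RVE6 (AT5G52660) is below it there, and AT1G69570 does not follow this order.

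Around their group means the 3 genes did not vary as a unit. Over the 11 arrays, the deviations of PRR7 and GI had a Pearson r of 0.59, those of PRR7 and AT1G69570 of 0.11, and those of GI and AT1G69570 of -0.07. These are descriptions with no test, and the genes of each pair share the same arrays. The array of 4tU-bZIP1 replicate 1, whose median correlation with the other arrays was 0.878 where theirs were 0.943 to 0.965, held the lowest AT1G69570 value of its group and an upper-range GI value, 133. Without it the log2 difference was 1.67 for PRR7, 1.93 for AT1G69570 and 0.42 for GI.

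The list of core clock genes had 29 members, of which 6 had a named probe set, and the others, CCA1, LHY and TOC1 among them, were not analysed here. None of the 6 passed the threshold, against 0.184% of all features in either direction. Only PRR7 had an unadjusted p under 0.05 from limma, and at that level 1.51% of all features were higher. Of the log2 differences, 4 were above 0 and 2 below, with a median of 0.22 beside 0.0014 over all features. They ran from -1.10 for LWD2 to 1.62 for PRR7. Both of these genes have a name here only through the study's lists of genes called on these same arrays. The range, the median and the unadjusted count are therefore not independent of those calls. Apart from PRR7 and GI, these members are known as a MYB factor of the REVEILLE group, a WD-repeat protein and nuclear regulators of the clock.

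RVE6 (AT5G52660), carried in the list as a REVEILLE gene, had 131, 94.2, 94.0, 56.6, 42.3 and 22.1 in 4tU-bZIP1, against 107, 88.8, 117, 104 and 19.2 in 4tU-EV. The groups overlapped over nearly their whole ranges, and the lowest value of each group lay on an array that stood apart, bZIP1 replicate 6 and EV replicate 5. Its log2 difference was -0.24 (standard error 0.59, adjusted p = 0.938 from limma). Its deviations ran opposite to those of PRR7, with an r of -0.84.

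TIC (AT3G22380), whose nuclear protein is needed to keep the clock running through the night, had 58.9, 47.4, 41.2, 58.9, 89.3 and 119 in 4tU-bZIP1, against 58.9, 54.6, 58.9, 41.2 and 63.6 in 4tU-EV. Only bZIP1 replicates 5 and 6 lay above the controls. The log2 difference was 0.23 (standard error 0.27, adjusted p = 0.847 from limma), and it was -0.05 without the arrays that stood apart. The deviations of TIC followed those of GI and PRR7, with an r of 0.84 and 0.83.

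LWD2 (AT3G26640), a WD-repeat activator of clock genes, had 6.45, 46.5, 10.8, 75.2, 26.2 and 13.8 in 4tU-bZIP1, against 65.9, 94.6, 55.1, 51.3 and 10.8 in 4tU-EV. Of the bZIP1 arrays, 5 were below controls 1 to 4, but 5 were also above control 5. The log2 difference was -1.10 (standard error 0.75, adjusted p = 0.847 from limma), and its 95% interval, -2.77 to 0.57, was the widest of the core clock list. LWD2 is on the study's list of repressed genes, and its probe set was named from that list. XCT (AT2G21150), a nuclear protein that sets the pace of the clock, had 30.9 to 61.8 with a median of 33.9 in 4tU-bZIP1, against 31.3 to 36.03 with a median of 31.3 in 4tU-EV, a log2 difference of 0.20 (adjusted p = 0.847 from limma).

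**Figure D3:**
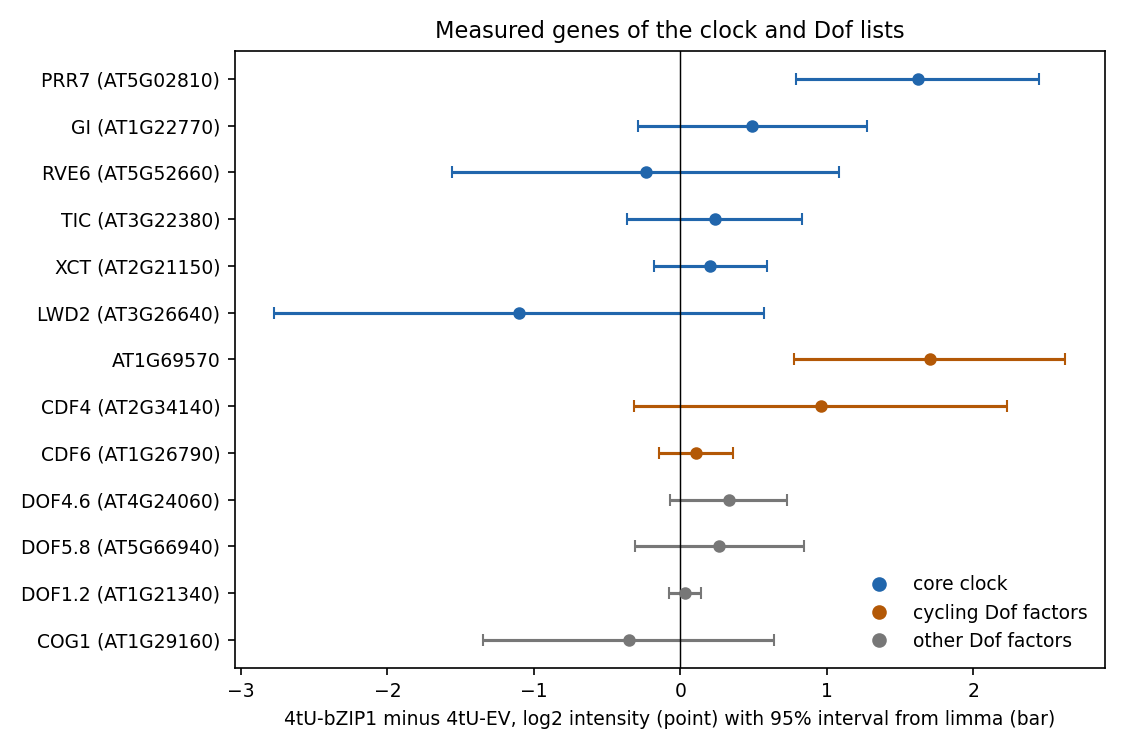
Log2 difference, 4tU-bZIP1 minus 4tU-EV, of the measured genes of the core clock (blue), cycling Dof (orange) and other Dof (grey) lists, with gene names as the lists carry them. Points are limma estimates and bars their 95% intervals; the intervals of PRR7 and AT1G69570 lie wholly above 0, and those of all the others include it.

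The list of cycling Dof factors had 6 members, of which 3 were measured. None passed the threshold, against 0.184% of all features in either direction. AT1G69570 alone had an unadjusted p under 0.05 from limma, and at that level 1.51% of all features were higher. It was picked with earlier results of these data known and is on the study's list of induced genes. Its direction and this count are therefore not independent of that call. All 3 log2 differences were above 0, with a median of 0.96 beside 0.0014 over all features. This median is the value of CDF4, whose 95% interval includes 0, and CDF6 was at the lowest intensity on nearly every array. CDF4 (AT2G34140), so named in the list, had 33.0, 79.9, 117, 165, 403 and 88.6 in 4tU-bZIP1, against 43.1, 89.4, 87.2, 47.4 and 37.3 in 4tU-EV. Replicates 3, 4 and 5 of 4tU-bZIP1 were above all controls and replicate 1 was below them. The log2 difference was 0.96 (standard error 0.57, 95% interval -0.32 to 2.23, adjusted p = 0.847 from limma), with an exact permutation p of 0.147. It was 0.42 without the arrays that stood apart. CDF6 (AT1G26790) lay at 4.92, the lowest intensity among the features tested, on every array except bZIP1 replicate 1, where it was 7.63, so its log2 difference of 0.11 has no level behind it in either group.

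Of 19 other Dof factors, 5 had a named probe set. That of PEAR2 (AT5G02460), a regulator of growth in the root vasculature, did not vary between arrays and was left out. None of the 4 measured genes passed the threshold, against 0.184% of all features in either direction. None had an unadjusted p under 0.05 from limma, where 1.51% of all features were higher and 3.24% lower. Their log2 differences ran from -0.35 to 0.33 with a median of 0.15 beside 0.0014 over all features. DOF4.6 (AT4G24060) had 141 to 238 with a median of 199 in 4tU-bZIP1, against 194, 181, 174, 120 and 127 in 4tU-EV, a log2 difference of 0.33 (adjusted p = 0.847 from limma). COG1 (AT1G29160), known as a negative regulator of phytochrome signaling, had 5.04 to 11.2 with a median of 7.22 in 4tU-bZIP1, against 4.92, 27.6, 11.4, 5.04 and 9.25 in 4tU-EV, a log2 difference of -0.35 (adjusted p = 0.848 from limma). DOF1.2 (AT1G21340) stayed under 6 on every array, as did DOF5.8 (AT5G66940) on all but bZIP1 replicate 1, where it had 14.2. Their log2 differences were 0.03 for DOF1.2 and 0.27 for DOF5.8. The 8 clock outputs on the list, such as CO and FT, had no named probe set and were not analysed here.

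Markers of other cells gave little to read. Of the 4 root epidermis and root hair genes, 2 were measured, WER and EXPA7, and their summed intensity was 12.3 to 151 in 4tU-bZIP1 and 11.01 to 71.1 in 4tU-EV. Neither passed the threshold, with log2 differences of 1.19 for WER and 0.57 for EXPA7. The probe set of WER was named from the study's list of induced genes, so its direction and that of the sum are not independent evidence. EXPA7, an expansin of root hairs, was at 54.98 on bZIP1 replicate 1 and between 4.93 and 5.18 on every other array. The guard cell genes FAMA, SPCH and MUTE were all near the lowest intensity, with sums of 14.8 to 15.3 in 4tU-bZIP1 and 14.8 in 4tU-EV. None of the genes listed for endodermis and cortex, stele, root cap or leaf was measured, so these cell types could not be followed.

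Each gene was also set against the 3858 named genes with a mean log2 intensity of at least 5, to find those whose pattern over the 11 arrays was most like its own. This measure includes the difference between the groups and carries no test. For PRR7 these were AT2G18180 (Pearson r = 0.95), ASPGB1 (AT3G16150), which encodes an asparaginase that frees ammonium from asparagine (r = 0.88), and AT1G01730 (r = 0.88). AT2G18180 averaged 197 ± 92.9 (SD) over the 6 arrays of 4tU-bZIP1 and 68.7 ± 16.6 (SD) over the 5 of 4tU-EV. ASPGB1 averaged 121 ± 77.6 (SD) over the 6 arrays of 4tU-bZIP1 and 30.6 ± 9.54 (SD) over the 5 of 4tU-EV. Their log2 differences, 1.43 and 1.86, did not pass the threshold (adjusted p = 0.282 and 0.224 from limma).

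The genes most like AT1G69570 were AT3G46690 (r = 0.91), AT1G18270 (r = 0.90) and AT3G20340 (r = 0.90). All 3 were higher on average in 4tU-bZIP1, with log2 differences of 1.07, 1.51 and 1.87 and adjusted p-values of 0.690, 0.229 and 0.241 from limma. AT3G20340 averaged 1481 ± 504 (SD) over the 6 arrays of 4tU-bZIP1 and 423 ± 164 (SD) over the 5 of 4tU-EV. For GI they were AT3G19740 (r = 0.90), AT3G05510 (r = 0.88) and psbD (r = 0.87), the chloroplast gene of a photosystem II core protein, with log2 differences of 0.30, 0.50 and 0.60 that did not pass the threshold.

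The call for PRR7 and AT1G69570 changed when arrays were weighted. When limma weighted the arrays by their quality, 66 features (0.338%) were called higher and 27 (0.138%) lower, PRR7 with a log2 difference of 1.61 (adjusted p = 0.0864) and AT1G69570 with 2.00 (adjusted p = 0.0995) among the higher ones. With any 1 array left out and no weights, neither passed. The difference of PRR7 then lay between 1.37 and 1.82 on the log2 scale, that of AT1G69570 between 1.54 and 1.97, and that of GI between 0.34 and 0.71.

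**Figure D4:**
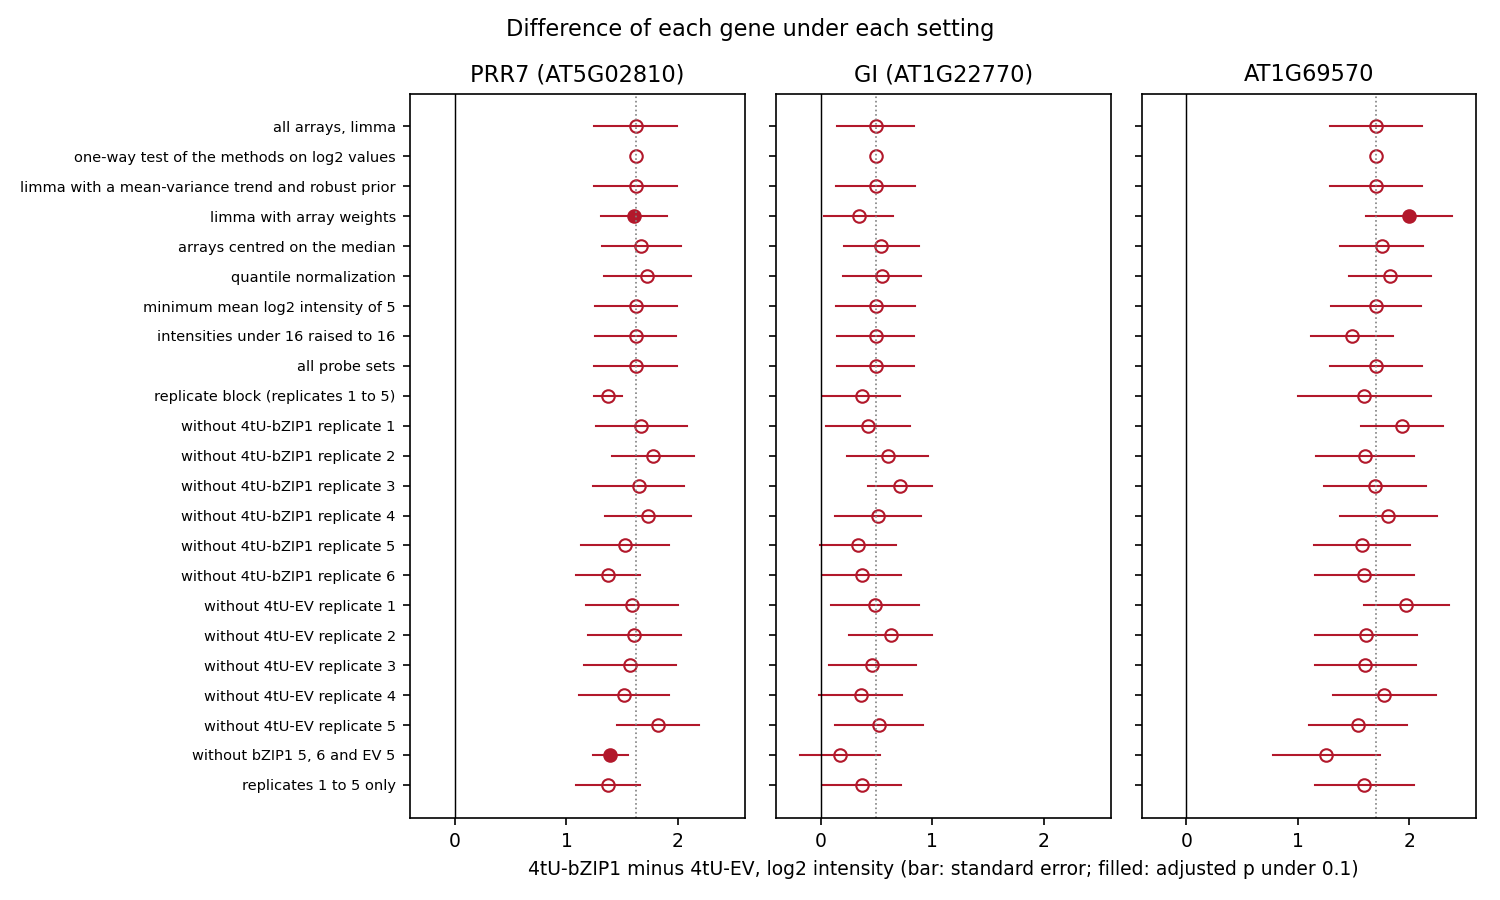
Log2 difference, 4tU-bZIP1 minus 4tU-EV, of PRR7, GI and AT1G69570 under each setting tried, with filled points where the adjusted p was under 0.1, bars for the standard error where the fit gives one, and a dotted line at the value from all arrays. PRR7 stays between 1.37 and 1.82 and AT1G69570 between 1.26 and 2.00, and only 2 settings for PRR7 and 1 for AT1G69570 are filled.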

How the data were processed

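The authors pulled down 4tU-labeled RNA, amplified and labeled it, hybridized 1 ATH1 array per sample and normalized with GCRMA, whose version is not given in the sources used here. The deposited values are intensities on the linear scale, so log2 was taken with no pseudocount. Probe sets with the same value on all arrays, of several genes, or unnamed with shared sequence were left out, and the probe set with the highest mean was taken per gene. The groups were compared with limma 3.58.1 in R 4.3.3, and exact permutation tests (two-sided, of the difference of mean log2 values) were run in Python 3.11.15 with scipy 1.17.1. On simulated data for this comparison with 19526 features, limma called 24 of 100 features changed by 1 and 62 of 100 changed by 2 on the log2 scale, with 11 unchanged ones. Precision is limited by how few arrays there are. The rank product and the filters for protoplasting and cycloheximide effects in the methods were not run.

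The members and lists were chosen with earlier results of these data known. Named are the 3 genes, all measured genes of the core clock and cycling Dof lists, up to 4 genes with the smallest p from each other list, and per member the 3 genes most like it. Marker lists covered root epidermis and root hairs, endodermis and cortex, stele, root cap, leaf and guard cells. Also tried were the one-way test that the methods name, run on log2 values, a trend with robust prior, array weights, median centring, quantile normalization, raising intensities under 16 to that value, leaving out features with a mean log2 intensity under 5, all probe sets, the replicate number as a block, a rank-sum test and each array left out. Leaving out 3 arrays together and using replicates 1 to 5 only were added after the data were seen.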

Additional observations from a re-analysis of the deposited data

Results flagged for a closer look

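A single outlying value was looked for in 27 groups of arrays. In 9 of them the gap of an array to its nearest neighbour took up an unusual share of the group's range. Chance gives about 5% for values without ties. The flagged groups of CDF6, DOF5.8 and DOF1.2, and that of XCT in 4tU-EV, hold tied values, so the count cannot be read against that share. RVE6 at 19.2 and LWD2 at 10.8 lay below the rest of their group on 4tU-EV replicate 5, and DOF1.2 lay above it there at 5.17. On 4tU-bZIP1 replicate 1, CDF6 at 7.63, DOF5.8 at 14.2 and DOF1.2 at 5.84 were above the rest, and this array's median correlation with the others, 0.878, was below that of its group. XCT was above the rest at 61.8 on 4tU-bZIP1 replicate 4 and at 36.03 on 4tU-EV replicate 1. No array was set apart in this way by PRR7, GI or AT1G69570.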

How the results depend on the processing

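Over 23 alternatives each, none reversed the sign of PRR7, GI or AT1G69570. Those that changed only the test or the set of features kept the same difference, so their sign could not reverse. The fit on replicates 1 to 5 only was the same as that without 4tU-bZIP1 replicate 6. GI did not pass the threshold in any alternative (log2 difference 0.17 to 0.71, adjusted p 0.720 to 0.909 where adjusted). PRR7 passed with array weights (1.61, adjusted p = 0.0864) and without the 3 arrays that stood apart (1.39, adjusted p = 0.0955), and AT1G69570 with array weights (2.00, adjusted p = 0.0995). An exact rank-sum test gave unadjusted p-values of 0.00433 at the difference of 1.62 for PRR7 and 0.00866 at 1.70 for AT1G69570, which stand for 1 gene and are not adjusted over all features. The one-way test that the methods name, run on log2 values, gave an adjusted p of 0.573 for PRR7 and 0.674 for AT1G69570. The study called genes that passed either that test or rank product, which was not run here. With 1 array left out, adjusted p from limma was 0.248 to 0.816 for PRR7 and 0.210 to 0.867 for AT1G69570. Called core clock genes numbered 1, PRR7, with array weights and without the 3 arrays, and called cycling Dof factors 1, AT1G69570, with array weights. Over all features 36 were called, 93 with array weights, 14 without the 3 arrays, 21 with replicates 1 to 5 only and 18 to 41 with 1 array left out. With the replicate number as a block over replicates 1 to 5, 0 features were called; PRR7 then had 1.37 (adjusted p = 0.281) and AT1G69570 1.60 (adjusted p = 0.819). The deviations of arrays with the same number had r of 0.000851 to 0.0256 for numbers 1 to 4 and 0.129 for number 5, whose arrays are among those that stood apart, so the numbers were not taken to pair the arrays. A floor of 16 gave 1.49 for AT1G69570, some of whose controls are below it. The cause of these shifts was not tested.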
